A study of Drosophila melanogaster with 2 samples.

Results

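Peaks of Atonal tagged with eGFP were described at 9 genes that encode transcription factors of the ecdysone response in Drosophila melanogaster: usp, Eip75B, Eip74EF, br, Eip78C, Hr4, Hr3, Hr39 and ftz-f1. The genes were chosen with earlier results of the same peak lists known. Their peaks were chosen by a rule that uses the peak lists themselves: a peak belongs to a gene if its summit lies inside it or has one of its starts as the nearest protein-coding start. The rule took 11 of 3009 peaks in the conservative list and 653 of 161563 peaks in the ranked list. The conservative list holds peaks that passed a threshold of 0.01 (2 on the −log10 scale) on the irreproducible discovery rate (IDR), which compares the order of peaks between replicates, and the ranked list also holds the peaks that did not pass. Since the rule uses peak position and, through the conservative list, the call itself, how many peaks each gene has is given as a description, without a test.

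The study was a ChIP-seq experiment on whole embryos aged 0 to 18 h, from 1 transgenic strain that expresses Atonal fused to eGFP, precipitated with an antibody against GFP. It had 1 group of 2 biological replicates, and no second genotype or treatment. All the embryo's cells were pooled, so a site bound in few cells and a site bound weakly in many cells cannot be told apart. The lists hold no expression values, so neither the tissue nor the presence of the fusion protein could be checked against marker genes.

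Ecdysone is the steroid hormone that times moulting and metamorphosis, and it also pulses in the embryo. It binds a heterodimer of the nuclear receptors EcR and Ultraspiracle, which activates early genes, and their products act on later genes, among them further nuclear receptors. Atonal is a basic helix-loop-helix factor that specifies precursors of chordotonal organs and photoreceptors, and proteins of its class bind E-boxes, whose general form is CANNTG.

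The sequences at 7 of the 11 summits are shown because the summits lie in introns or between genes, and the letters let the motif results be read directly. They come from the RefSeq dm6 genome assembly, are written 5′ to 3′ on the strand of the gene (minus for Eip74EF, Eip75B, ftz-f1 and usp, plus for Hr4), and reach 50 bp to each side of the summit, except that of usp, which stops short of the neighbouring exons. Capitals mark E-boxes (CANNTG), the ETS core CCGGAA or its reverse complement, and GAGAG or its reverse complement.
ftz-f1, -222 bp, chr3L:18801481-18801581: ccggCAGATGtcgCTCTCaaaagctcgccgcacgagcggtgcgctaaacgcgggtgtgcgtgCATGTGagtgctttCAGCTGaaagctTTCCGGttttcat
usp, -115 bp, chrX:2041387-2041460: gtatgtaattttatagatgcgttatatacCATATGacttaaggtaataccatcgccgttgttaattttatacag
Eip74EF, -14344 bp, chr3L:17590920-17591020: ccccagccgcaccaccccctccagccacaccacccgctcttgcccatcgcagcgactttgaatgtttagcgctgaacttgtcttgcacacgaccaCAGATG
Eip74EF, +6882 bp, chr3L:17612393-17612493: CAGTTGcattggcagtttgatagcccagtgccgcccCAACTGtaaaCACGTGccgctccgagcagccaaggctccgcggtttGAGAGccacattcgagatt
Hr4, -100 bp, chrX:1992150-1992250: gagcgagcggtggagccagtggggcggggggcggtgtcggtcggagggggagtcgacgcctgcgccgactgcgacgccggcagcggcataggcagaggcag
Hr4, +11122 bp, chrX:1953012-1953112: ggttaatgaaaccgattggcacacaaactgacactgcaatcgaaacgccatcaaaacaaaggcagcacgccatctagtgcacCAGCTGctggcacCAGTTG
Eip75B, +10477 bp, chr3L:17989294-17989394: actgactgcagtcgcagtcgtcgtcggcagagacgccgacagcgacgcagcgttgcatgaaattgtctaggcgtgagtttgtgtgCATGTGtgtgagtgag

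The distances in base pairs run from the nearest start of the same gene, with upstream distances negative. At the Eip74EF summit at +6882 bp, the E-box CACGTG covered the summit itself and CAACTG lay 9 bp away. The usp summit also lay on an E-box, CATATG. In the other Eip74EF sequence the only E-box lay 45 bp from the summit, and in the Eip75B sequence it lay 35 bp away. The Hr4 sequence with E-boxes had them at 32 and 45 bp. How often an E-box covers the summit among all ranked peaks was not tested. The ftz-f1 sequence held 3 E-boxes (CATGTG at 12 bp, CAGCTG at 26 bp and CAGATG at 41 bp from the summit), whereas the Hr4 sequence at -100 bp held none and was 76.2% G or C.

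Of the 9 genes, 5 had at least 1 peak in the conservative list: Eip75B had 5, Eip74EF and Hr4 had 2 each, and usp and ftz-f1 had 1 each. The other 4, br, Eip78C, Hr3 and Hr39, had none. The 5 of 9 (55.6%) stand beside 20.2% of all protein-coding genes with such a peak inside or nearest to them. The 9 genes hold long stretches of genome, with a median of 60.4 kb against 5.26 kb for all protein-coding genes, counting all positions inside the gene or nearest to its starts. Per 100 kb the 9 genes held 2.02 conservative peaks, against 2.18 over all main chromosome arms, so in this list their number is near the background for the genome they hold. Of their 653 ranked peaks, 11 (1.68%, 95% Wilson interval 0.943 to 2.99) were in the conservative list, against 1.88% of all ranked peaks on the main arms. In single replicates the share that passed was lower than that of all peaks, 0.791% against 2.12% in replicate 1 (4 peaks) and 0.541% against 1.23% in replicate 2 (3 peaks). All intervals on shares cover only the counting of peaks. Neighbouring ranked peaks can overlap and draw on the same replicate peak, as some do at Eip74EF. The intervals count such peaks as separate and do not allow for this.

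**Figure D1:**
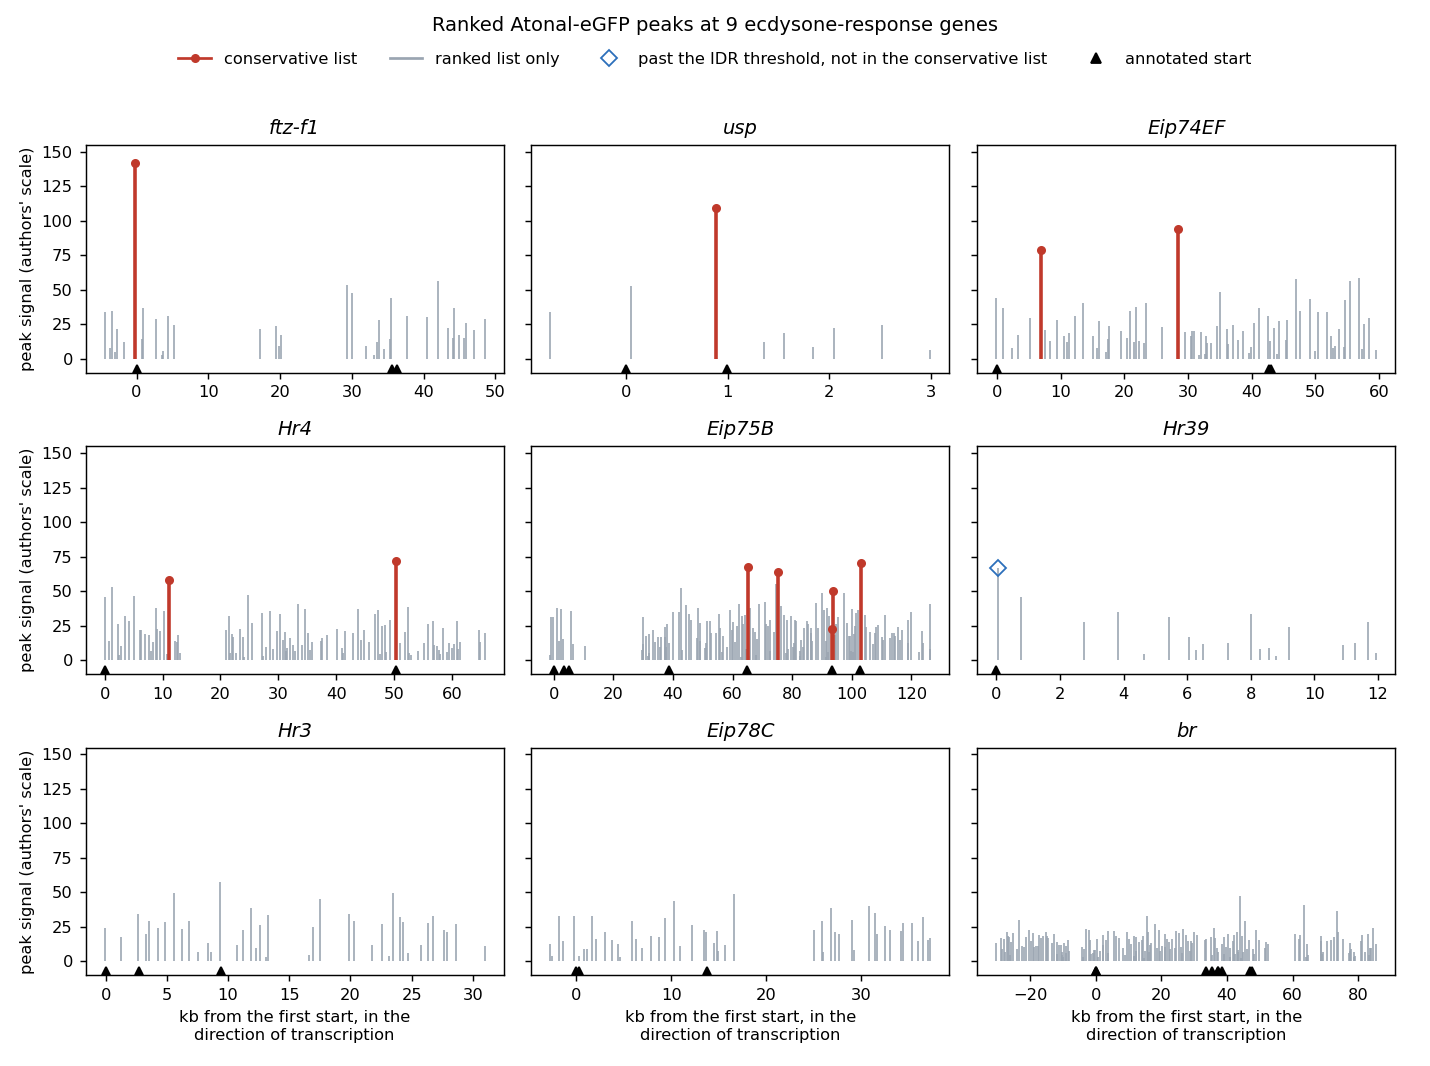
Ranked peaks along the 9 genes. The horizontal axis is distance from the first start in the direction of transcription (kb), the vertical axis is peak signal on the authors' scale, red points are peaks of the conservative list, grey lines are other ranked peaks, and triangles are annotated starts. The signals of conservative peaks ran from 22.6 at Eip75B to 141.8 at ftz-f1, and no peak of br, Eip78C or Hr3 reached 60 on this scale.

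usp encodes Ultraspiracle, the RXR-type partner of EcR. It is the shortest of the 9 genes (FBgn0003964, chrX:2038798-2042311, minus strand) and had 9 ranked peaks. Its conservative peak at chrX:2041259-2041594 had a signal of 109.3, rank 1091 of 3009, with the summit in an intron at -115 bp from the start of transcript RA. The peak had signals of 62.0 in replicate 1 and 49.8 in replicate 2 in the replicates' own ranked lists. The start of CG4313 lay 441 bp from the same summit, so the peak is near the starts of both genes. Counted by the same rule, Actn also had 1 conservative peak, and its strongest signal was the same 109.3. The peak thus does not belong to usp alone. A second usp peak, at the start shared with Actn, had a signal of 53.2 and was just outside the threshold (−log10 IDR 1.76).

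Eip75B, Eip74EF and br are the classical early genes, which respond directly to the hormone. Eip75B encodes haem-binding nuclear receptors of the Rev-erb type that counteract Hr3. Its locus (FBgn0000568, chr3L:17950953-18064696, minus strand) carries 7 annotated starts that give different isoforms. Peaks of the conservative list lay within 500 bp of 3 of them: the signal was 70.7 at +145 bp from the RD start, 67.5 at +274 bp from the RC start, and 49.8 and 22.6 at +286 and +53 bp from the RA start. The pair at RA overlapped and drew on the same replicate peaks, with signals of 32.3 in replicate 1 and 36.9 in replicate 2, so the 11 peaks of the 9 genes rest on 10 distinct intervals. The fifth Eip75B peak lay in an intron at +10477 bp, with a signal of 63.7. In the replicates, the RD peak had 34.9 in replicate 1 and 34.6 in replicate 2, the RC peak 33.9 in replicate 1 and 34.9 in replicate 2, and the intronic peak 34.6 in replicate 1 and 28.3 in replicate 2. The RD and RC peaks thus had nearly the same signal in both replicates, and the conservative peaks at the RD, RC and RA starts had their summits in 5′ UTRs. The signals at the other Eip75B starts were 12.7 at RG, 15.7 at RE and 31.1 at RF, and RB had no ranked summit within 500 bp. The conservative peaks therefore lay at the 3 starts nearest the 3′ end of the locus and in the intron between them. This pattern depended on the list. The other thresholded list of both replicates held 3 Eip75B peaks: the RC peak, the intronic peak at +10477 bp and another at +9695 bp. It lacked the RD peak and the RA pair, and the thresholded lists of the single replicates held no Eip75B peak.

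Eip74EF encodes ETS-domain factors. The gene (FBgn0000567, chr3L:17558672-17619325, minus strand) had its conservative peaks inside introns, away from all of its starts. The first, at chr3L:17590802-17591137, had a signal of 94.1 (rank 1374), and 41.2 in replicate 1 and 42.3 in replicate 2. The second, at chr3L:17612275-17612610, had a signal of 78.6, and 40.8 in replicate 1 and 33.5 in replicate 2. The strongest signals within 500 bp of its starts were 22.5 at RD, 31.2 at RB and 44.0 at RA, none of them in the conservative list. For Eip74EF the strongest peaks farther than 500 bp from its starts thus stood above those near the starts, the reverse of the order at usp and ftz-f1.

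br encodes BTB zinc finger proteins that direct the pupal programme. It held the most ranked peaks of the 9 genes, 174 over 120.8 kb, and none passed. Its median ranked signal was 13.8, above that of only 12.3% of protein-coding genes with at least 5 ranked peaks, and its strongest peak, in an intron, reached 47.7 with a −log10 IDR of 1.28. At 8 of its 9 starts the strongest signal within 500 bp lay between 9.12 and 17.7, and the RS start had no ranked summit. The nearest conservative peak, with a signal of 154.5, lay 135 bp past the end of br at the start of dor and belongs to that gene by the rule.

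Hr4 encodes a nuclear receptor that limits early gene expression. It had a peak at the internal start of transcripts RE and RF (FBgn0264562, chrX:1941940-2007956, plus strand): the signal was 71.7 at -100 bp, with 43.4 in replicate 1 and 27.5 in replicate 2. A second peak in an intron at +11122 bp had a signal of 58.2, with 35.3 in replicate 1 and 27.8 in replicate 2. Both had a higher signal in replicate 1. The first start of Hr4, used by 7 transcripts, had a signal of 45.8 and was not in the conservative list.

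ftz-f1 encodes a nuclear receptor of the NR5A type that gives tissues competence to respond to a later hormone pulse, and in the early embryo it is the partner of Fushi tarazu. It had the strongest peak of the 9 genes (FBgn0001078, chr3L:18750607-18801309, minus strand). That peak, at chr3L:18801363-18801698, had a signal of 141.8, rank 685 of 3009, with 88.4 in replicate 1 and 54.2 in replicate 2, ranks 525 of 118733 and 1106 of 141198. The summit lay between genes at -222 bp from the RB start, and the start of lncRNA:CR45939, which runs the same way, was 219 bp away, so the peak lies upstream of both starts. Another ftz-f1 peak, inside an intron, passed in the list of replicate 1 alone, with a signal of 45.2. In the ranked list of both replicates it had 56.3 and a −log10 IDR of 0.128.

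The other nuclear receptor genes had no peak in the conservative list. Hr39, a relative of ftz-f1 with a like DNA-binding domain, had a peak at +42 bp from its only start with a signal of 66.5 and a −log10 IDR of 2.83, and signals of 39.3 in replicate 1 and 46.6 in replicate 2. This value is past the threshold, yet the peak is 1 of 124 ranked peaks past it that are absent from the conservative list. Hr3, the ROR-type receptor that activates ftz-f1, had its strongest peak at the start shared with CG46321, with a signal of 57.7 and a −log10 IDR of 1.799, below the threshold. It was absent from the conservative list but present in the other thresholded list of both replicates, as was the Eip75B peak just outside the threshold. Eip78C, a receptor related to Eip75B, had 50 ranked peaks, the strongest in an intron with a signal of 49.0. The values on both sides of the threshold were close: the 3 peaks just inside had a −log10 IDR of 2.11, 2.13 and 2.19, and the 3 just outside, at Hr3, Eip75B and usp, had 1.799, 1.78 and 1.76.

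**Figure D2:**
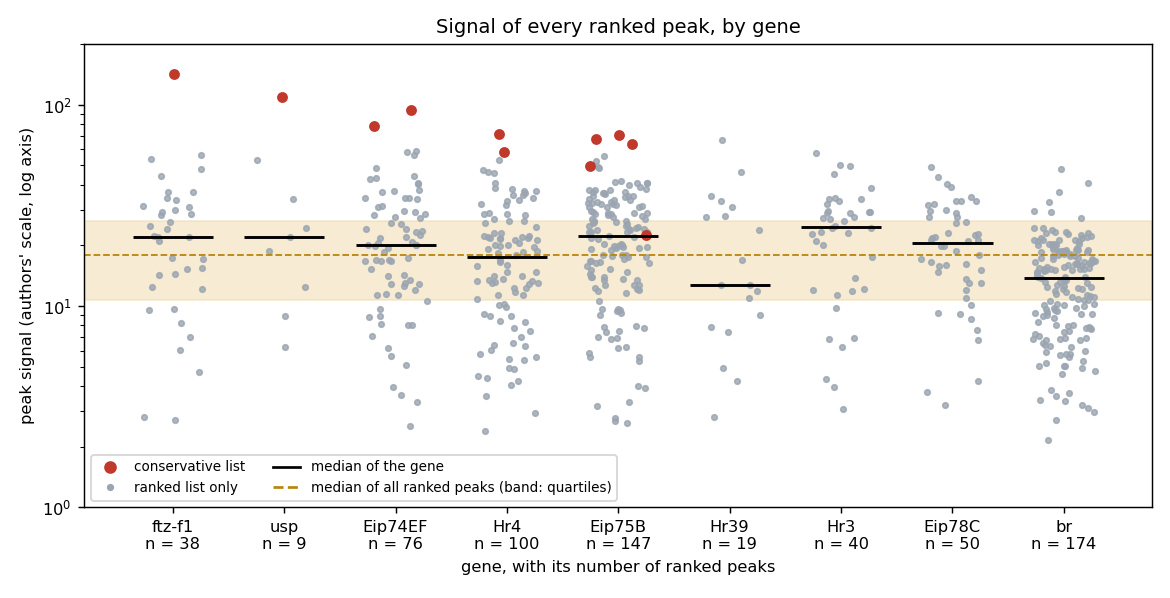
Signal of every ranked peak by gene, on a log axis. Red points are peaks of the conservative list, grey points are other ranked peaks, black lines are gene medians, and the dashed line and band are the median and quartiles of all ranked peaks. The medians run from 12.7 at Hr39 to 24.8 at Hr3, and those of 6 genes lie above the median of all ranked peaks, 17.8.

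Replicate signals could be set side by side for each peak past the threshold. The thresholded lists of replicate 1 and replicate 2 both held a peak over 3 of the 11 (27.3%), those of ftz-f1, usp and Eip74EF at -14344 bp, against 45.8% for the whole conservative list. The other 8 (72.7%, 43.4 to 90.3) were in neither, against 25.3%. These 8 include the overlapping pair at the RA start of Eip75B, which drew on the same replicate peaks. The median absolute log2 ratio of the paired signals was 0.29 over the 11 peaks and 0.31 over all conservative peaks. The 11 peaks were also weaker, with a median signal of 70.7 against 88.6. Whether the weaker signal has a part in these shares was not tested.

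**Figure D3:**
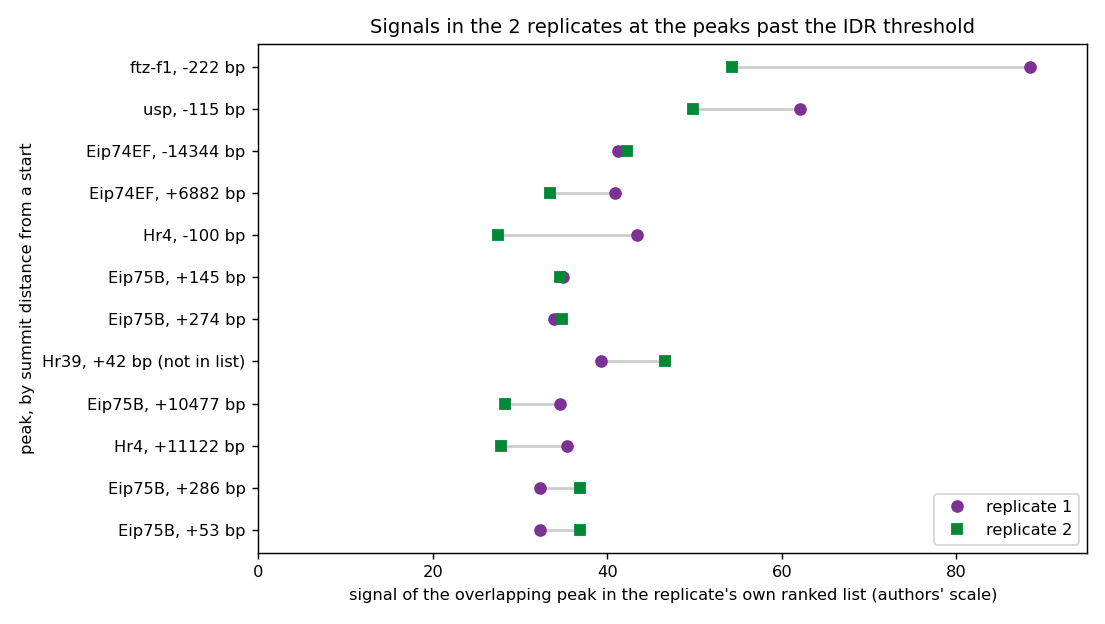
Signal in replicate 1 (purple) and replicate 2 (green) of the overlapping peak in each replicate's own ranked list, for the 11 conservative peaks and the Hr39 peak. The horizontal axis is the signal on the authors' scale. The ftz-f1 peak has the widest gap, 88.4 against 54.2, and the Eip75B peaks at +145 and +274 bp have nearly equal signals.

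In the share of starts with a summit nearby, the 9 genes were close to all coding genes. A ranked summit lay within 500 bp of 30 of their 33 distinct starts (90.9%), against 88.3% of all coding starts. A conservative summit lay near 6 of the 33 (18.2%), against 18.9% of all coding starts. Of the 11 conservative peaks, 7 (63.6%) lay within 500 bp of an annotated start of any gene, against 86.3% of all conservative peaks. The remaining 4 lay in introns of Eip74EF, Eip75B and Hr4, and the summits of usp at -115 bp and Hr4 at -100 bp were in introns as well, but near a start. Among ranked peaks, 8.73% lay near a start (95% Wilson interval 6.80 to 11.1), against 16.0% of all. The summits of the 9 genes were mostly intronic, 77.9% against 39.2%, and rarely intergenic, 2.60% against 26.0%. The rule takes whole gene bodies as well as positions nearest to the starts. Of the 653 summits, 98 lay inside one of the 9 genes but nearest to another gene's start. Whether the rule has a part in these shares was not tested. Of the ranked peaks near a start, 7 of 57 passed at the 9 genes (12.3%, 6.08 to 23.2), against 10.2% of all. Of those farther away, 4 of 596 passed (0.671%, 0.261 to 1.71), against 0.307%. Both intervals include the share of all. Ranked peaks per 10 kb ran from 6.29 at ftz-f1 and 8.38 at Hr39 to 14.4 at br and, at the top, 21.1 at usp, against 11.6 over all main arms. Signals of the ranked peaks had a median of 17.8 at the 9 genes and 17.8 over all.

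**Figure D4:**
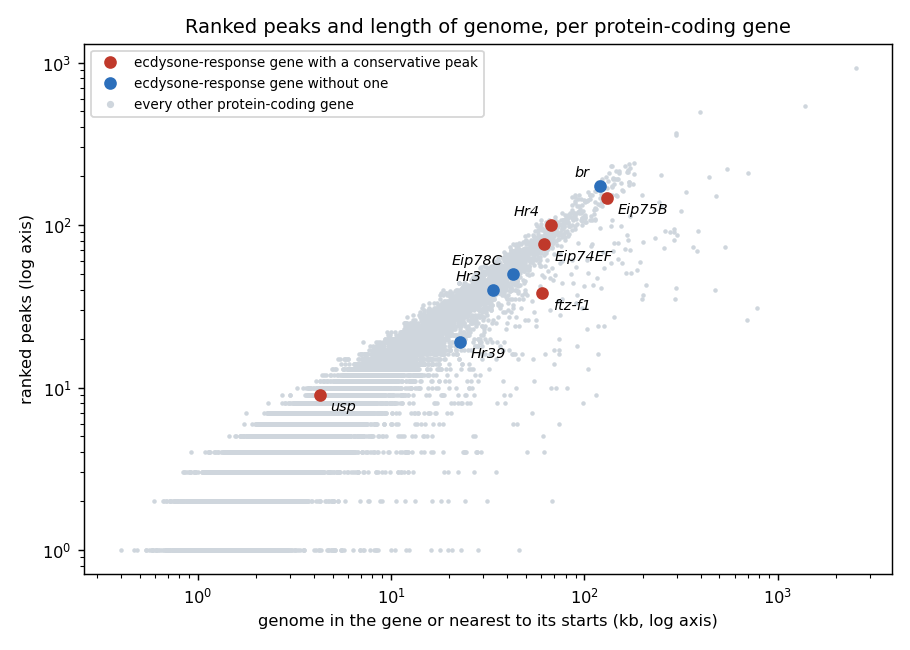
Ranked peaks of each protein-coding gene against the genome it holds (kb), both on log axes. Large red points are genes of the 9 with a conservative peak, large blue points those without, and small grey points are other coding genes. Genes without a ranked peak are not shown. The 9 genes lie within the spread of the others, from usp with 9 peaks in 4.27 kb to br with 174 in 120.8 kb.

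The motifs near the ranked summits of the 9 genes were compared with those at all ranked summits, searching 50 bp to each side on both strands. CANNTG was in 42.1% of the 653 peaks (38.4 to 45.9) and in 43.6% of all ranked peaks. Its form CAGCTG was in 5.36% against 5.86%, and CAGGTG in 3.22% (2.11 to 4.87) against 5.20%. For the E-box in general the share was thus near that of all peaks. The nuclear receptor half-site AGGTCA was in 3.37% (2.24 to 5.05) against 2.72%. The extended form CAAGGTCA, which contains it, was in 6 peaks (0.919%, 0.422 to 1.99) against 0.283% of all. These 6 lay at Eip75B, br, Eip74EF and Hr4. The ETS core CCGGAA was in 2.14% (1.28 to 3.57) against 3.89%, and GAGAG in 17.3% (14.6 to 20.4) against 12.9%. The palindrome TATCGATA, of the DNA replication-related element, was in 0 of 653, against 0.584% of all ranked peaks. The Wilson interval for 0 of 653 reaches 0.585%, barely above that share. The limit of 3 counts used elsewhere for a count of 0 is 0.459%, below it. The limits thus fall on either side of the share and do not settle whether it is included.

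**Figure D5:**
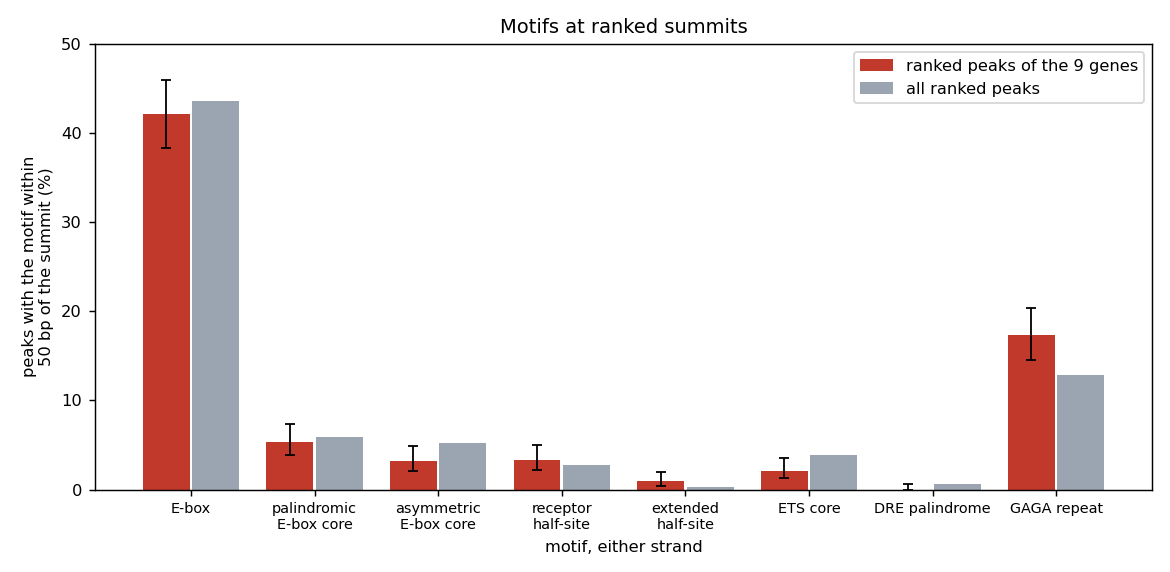
Percentage of ranked peaks with each motif within 50 bp of the summit, on either strand, for the 9 genes (red) and for all ranked peaks (grey). Error bars are 95% Wilson intervals, which count peaks only. The general E-box is at 42.1% against 43.6%, and the GAGA repeat at 17.3% against 12.9%.

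Among the 11 conservative peaks, 8 held CANNTG within 50 bp of the summit, against 38.7% of all conservative peaks. CAGCTG was in 3 of 11, against 9.28%. TATCGATA was in 0 of 11, which by the limit of 3 counts allows up to 27.3%, against 18.1% of all conservative peaks. The few peaks leave these shares imprecise, and 2 of the 11 overlap at the RA start of Eip75B. G and C made up 52.5% of the bases in the median window of the 11, against 45.5% for all conservative peaks, and 49.5% in the ranked peaks of the 9 genes, against 47.5% for all.

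Other genes of the hormone pathway were read from 4 lists, chosen with earlier results known. Of 14 genes of ecdysone synthesis and uptake, 1 had a conservative peak, shd, a late step of synthesis, with a signal of 56.8. Of 10 genes of the receptor complex and its cofactors, 3 had one: usp, Nurf-38 with 79.0, and EcR, the hormone receptor itself, with 11 peaks between 4.29 and 236.2. EcR alone thus held as many conservative peaks as the 9 genes together, 7 of them near a start and 6 in the lists of both replicates. The 11 peaks of the 9 genes rest on 10 distinct intervals, and no such count is given for EcR. Of 14 other nuclear receptor genes 4 had a peak (EcR, svp with 103.4, knrl with 75.5 and Hr38 with 75.3). Of 20 other ecdysone-induced genes 4 had one (dor, crol, Eip63E and E23), and the strongest signal per gene ran from 95.5 at E23 to 154.5 at dor. EcR stands in 2 of the lists, and the share of all coding genes with such a peak is the 20.2% given above. That share does not allow for the length of genome held. In the order given, the 4 lists hold 537, 261, 368 and 487 kb.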

How the data were processed

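ChIP-seq peak lists (dm6) were deposited for 2 biological replicates and for both together. Each holds, per peak, the authors' signal value, whose scale is unstated, and −log10 of the IDR as deposited. For aligner and peak caller the sources used here give no name, and no read counts were used, so depth is unknown. Genes and starts came from Ensembl release 115, sequence from RefSeq Release 6. Peaks were assigned by summit, motifs were counted by exact words, and shares have 95% Wilson intervals (scipy 1.17.1, pandas 2.3.3). The assignment was tested on simulated peaks. Columns that pair replicates do not name them, so replicate values are the strongest overlapping peak in each replicate's own ranked list. The rule for named genes took the 9 with their conservative peaks, the strongest ranked peak of those without, EcR, and genes of the 4 lists with a conservative peak, while neighbouring genes and the other peaks given were chosen after their values were seen. The 9 genes and the lists were chosen with earlier results of these data known. Pathway symbols were updated for 5 genes. Alternatives varied the list, replicate, stringency, assignment, overlap and window.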

Additional observations from a re-analysis of the deposited data

How the results depend on the processing

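The 11 peaks at 5 genes became 4 peaks at 3 genes in the list of replicate 1 (without replicate 2), 3 peaks at 3 genes in that of replicate 2, and 3 peaks at 3 genes among the strongest 50% of conservative peaks. The percentage of ranked peaks that passed ranged from 0.541 to 0.791 in the single replicates, against 1.23 and 2.12 for all peaks there, and the median ranked signal ranged from 11.0 to 12.4, against 10.6 and 11.9 for all peaks there. Near-start shares were 5.05% within 200 bp, 15.3% within 1000 bp and 6.58% with coding starts only, against 8.48%, 27.5% and 13.7% of all ranked peaks. E-box shares were 25.7% within 25 bp and 63.9% within 100 bp of the summit, against 24.3% and 67.9%, so at 25 bp the 9 genes had the higher share and at 50 and 100 bp the lower. At 50 bp the interval (38.4 to 45.9) included the share of all, and no intervals are given at 25 and 100 bp. Counts were 10 peaks at 6 genes in the pooled list, and 12 at 6 when peaks past the IDR threshold but absent from the conservative list, among them that of Hr39, were added, an alternative chosen after seeing the data. The cause of these differences was not tested. No paired analysis was possible because the study has 1 group. Shares over the conservative peaks rest on 11 peaks and are imprecise, and the part of sequencing depth is unknown.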

Other observations

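Within the 9 genes, 7 stretches of more than 5 kb held no ranked summit. They covered 75.6 kb, 15.7% of the gene bodies, against 17.2% of the main arms in 1471 such stretches. At ftz-f1, a stretch of 9.26 kb was 93.1% annotated transposon sequence of the reference strain, and at Hr4 one of 7.99 kb was 98.6%. Those of Eip78C (8.47 kb) and br (8.36 kb) were 88.6% each, and that of Eip75B (19.1 kb) was 34.0%, with 0 ranked summits in replicate 1 and 10 in replicate 2. At ftz-f1 a second stretch, of 11.97 kb, held no annotated transposon, and the ranked list of replicate 1 had 11 summits in it and that of replicate 2 had 1. At Hr39 a stretch of 10.5 kb was 13.6% transposon sequence and held 9 summits in replicate 1 and 1 in replicate 2. The part of transposon sequence in these stretches was not tested.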
